A study of Mus musculus with 4 samples.

Results

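Pleiotrophin (Ptn), midkine (Mdk) and the cell surface proteins reported to receive them, Ptprz1, Sdc2, Sdc3 and Alk, are 6 of the 16600 genes in the single-cell table of this study. They were taken by name as ligands and receptors of 1 signalling family. The family was picked from the difference of Ptn between genotypes in interneurons with Lhx6 in an earlier look at these cells, so the values of that class are described without a test. The deposited table holds 6562 cells from 4 libraries, 2 from wild type (WT) fetuses and 2 from Setd5+/- (Het) fetuses, which carry 1 Setd5 GFP allele as a heterozygous knockout of a gene linked to autism and intellectual disability. All 4 fetuses were on the C57BL/6J background and were taken at E18.5. Primary cortical cells were sorted by flow cytometry as positive for CD24, a marker of young neurons, and negative for CD45, a marker of blood cells, and each fetus gave 1 droplet library of unique molecular identifiers (UMIs) read near the 3′ end of transcripts. The libraries are called here by the prefixes of their cell names, WT3, WT6, Het5 and Het9.

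Pleiotrophin and midkine are the only members of a family of small secreted proteins that bind heparin and related sugar chains. In the developing brain pleiotrophin is made by radial glia and held in the extracellular matrix. Both ligands bind the chondroitin sulfate chains of the receptor phosphatase PTPRZ1, whose phosphatase activity falls on binding, and the heparan sulfate chains of syndecans such as SDC2 and SDC3. The receptor tyrosine kinase ALK has been reported as a further receptor.

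The libraries held 1453, 1954, 1710 and 1445 cells (WT3, WT6, Het5, Het9) with a median of 5398 to 5997 UMIs per cell. Setd5 stood at 1.18 and 1.07 UMIs per 10000 in the WT libraries and at 0.540 and 0.586 in the Het libraries, a log2 difference of -0.89 (limma, adjusted p = 0.00696). Xist was at 20.6 and 21.5 UMIs per 10000 in the WT libraries and at 0.152 and 0.310 in the Het libraries, while Ddx3y, on the Y chromosome, was at 0 and 0.000602 in WT and at 0.492 and 0.465 in Het. Genotype and fetal sex can therefore not be told apart in any comparison below. The cells fell into 13 clusters, found without the 6 members among the clustering genes. In the melanocyte-like class 140 of 147 cells, and in the immune cell-like class 84 of 105 cells, carried a barcode that occurs in all 4 libraries, against 0 cells in the other classes. Tests between genotypes include both classes, and the count of members called is also given without them. The immune cell-like name rests on Cd74 alone among the top 10 genes of the cluster, whose median UMI count was 0.336 of that of all cells.

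In the mouse genome (GRCm38, GENCODE M21), Ptn spans chr6:36714929-36810220 on the minus strand and Ptprz1 lies on the same chromosome at chr6:22875502-23052916 on the plus strand. Mdk is a short gene at chr2:91929805-91932297 (minus), Sdc2 is at chr15:32920723-33034935 (plus), Sdc3 at chr4:130792537-130826319 (plus) and Alk at chr17:71868972-72604627 (minus). Of the 6 genes, 4 had an entry in the RefSeq promoter table (GRCm38.p6). The sequences upstream of Ptn and Ptprz1 are shown because these genes share their highest class, the radial glia-like cells. Capitals mark matches, on either strand, to TGGGAA, the core that the Notch effector RBPJ binds, and to CCGCCC, a GC box.
Ptn, chr6:36810221-36810429, minus strand: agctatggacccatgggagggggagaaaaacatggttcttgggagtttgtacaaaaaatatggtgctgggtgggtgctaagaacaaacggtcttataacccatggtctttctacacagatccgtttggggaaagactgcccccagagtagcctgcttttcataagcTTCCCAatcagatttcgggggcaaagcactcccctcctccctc
Ptprz1, chr6:22875252-22875501, plus strand: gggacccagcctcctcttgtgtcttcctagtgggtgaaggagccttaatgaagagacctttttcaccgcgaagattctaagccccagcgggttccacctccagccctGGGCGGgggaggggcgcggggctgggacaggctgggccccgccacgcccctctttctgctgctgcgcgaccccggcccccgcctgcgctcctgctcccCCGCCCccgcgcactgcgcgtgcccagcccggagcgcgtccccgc
The promoter window of 250 bases of Ptn, chr6:36810180-36810429, reaches into the gene span given above. Only its 209 bases upstream of that span are printed. The window was 52% G or C with 5 CpG dinucleotides, the same base content as the median of 27025 mouse promoters of that length (52%, 6 CpG). It held 1 TGGGAA match. The window of Ptprz1 was 71.6% G or C with 22 CpG and held 2 CCGCCC matches and no TGGGAA match. Over all promoters 21.5% held TGGGAA and 32.9% held CCGCCC, a motif that itself contains a CpG. Neither window held CANNTG (66.0% of promoters), ACAANG (36.6%) or TATAAA (3504 of the 27025 promoters). These matches describe letters only.

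Ptn was a gene of the radial glia-like cells, the progenitors that line the ventricle and guide migrating neurons. There its mean level was 15.3, 13.9, 17.3 and 16.6 UMIs per 10000 in WT3, WT6, Het5 and Het9, or 15.8 ± 1.5 (SD, n = 4). No other class exceeded 6.71 in any library. The next classes were the excitatory neuron-like cells at 5.94 ± 0.61 and the Cxcl12/Cdh8 neurons at 5.60 ± 0.22, which overlapped. The Cxcl12/Cdh8 neurons are a cluster left unnamed and called by its leading genes. Below them the erythroid-like cells (27 cells), the intermediate progenitor-like cells (2.11 ± 0.20), the striatal neuron-like cells (2.03 ± 0.57), the Lhx6-type interneuron-like cells (1.61 ± 0.82) and the cycling cells (1.40 ± 0.21) each overlapped the class next in order. Ptn was at 1.13 ± 0.11 in the subpallial progenitor-like cells and at 0.484 ± 0.25 in the Tac2/Neurod1 cells, a second unnamed cluster.

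A Ptn UMI was found in 93.8% of radial glia-like cells, 71.3% of excitatory neuron-like cells and 24.8% of the Lhx6-type class. After thinning every cell to 2000 UMIs, which left out 196 shallower cells, the shares were 82.5%, 52.3% and 17.8%. In the melanocyte-like class, pigment cells at a median of 5362 UMIs that serve as a background, 1.36% of cells had a Ptn UMI, and in the immune cell-like class 0 of 105 did, which allows a share of up to 2.86%. These intervals and limits cover counting error only. The limit also takes the cells as independent, though 84 of the 105 carried a barcode that occurs in all 4 libraries. Their class had a median of only 1923 UMIs per cell.

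Because classes differ in size, the share of a library's Ptn UMIs that each class gave was also computed. Radial glia-like cells gave 28.9% to 53.9% of the Ptn UMIs of a library from 6.61% to 13.3% of its cells. The excitatory neuron-like cells gave 19.0% to 35.5% from 16.6% to 25.7% of the cells. In WT3 they gave slightly more than the radial glia-like cells (29.5% against 28.9%), and in Het9 nearly as much (35.5% against 36.7%). The Cxcl12/Cdh8 neurons followed with 9.07% to 18.53%.

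**Figure D1:**
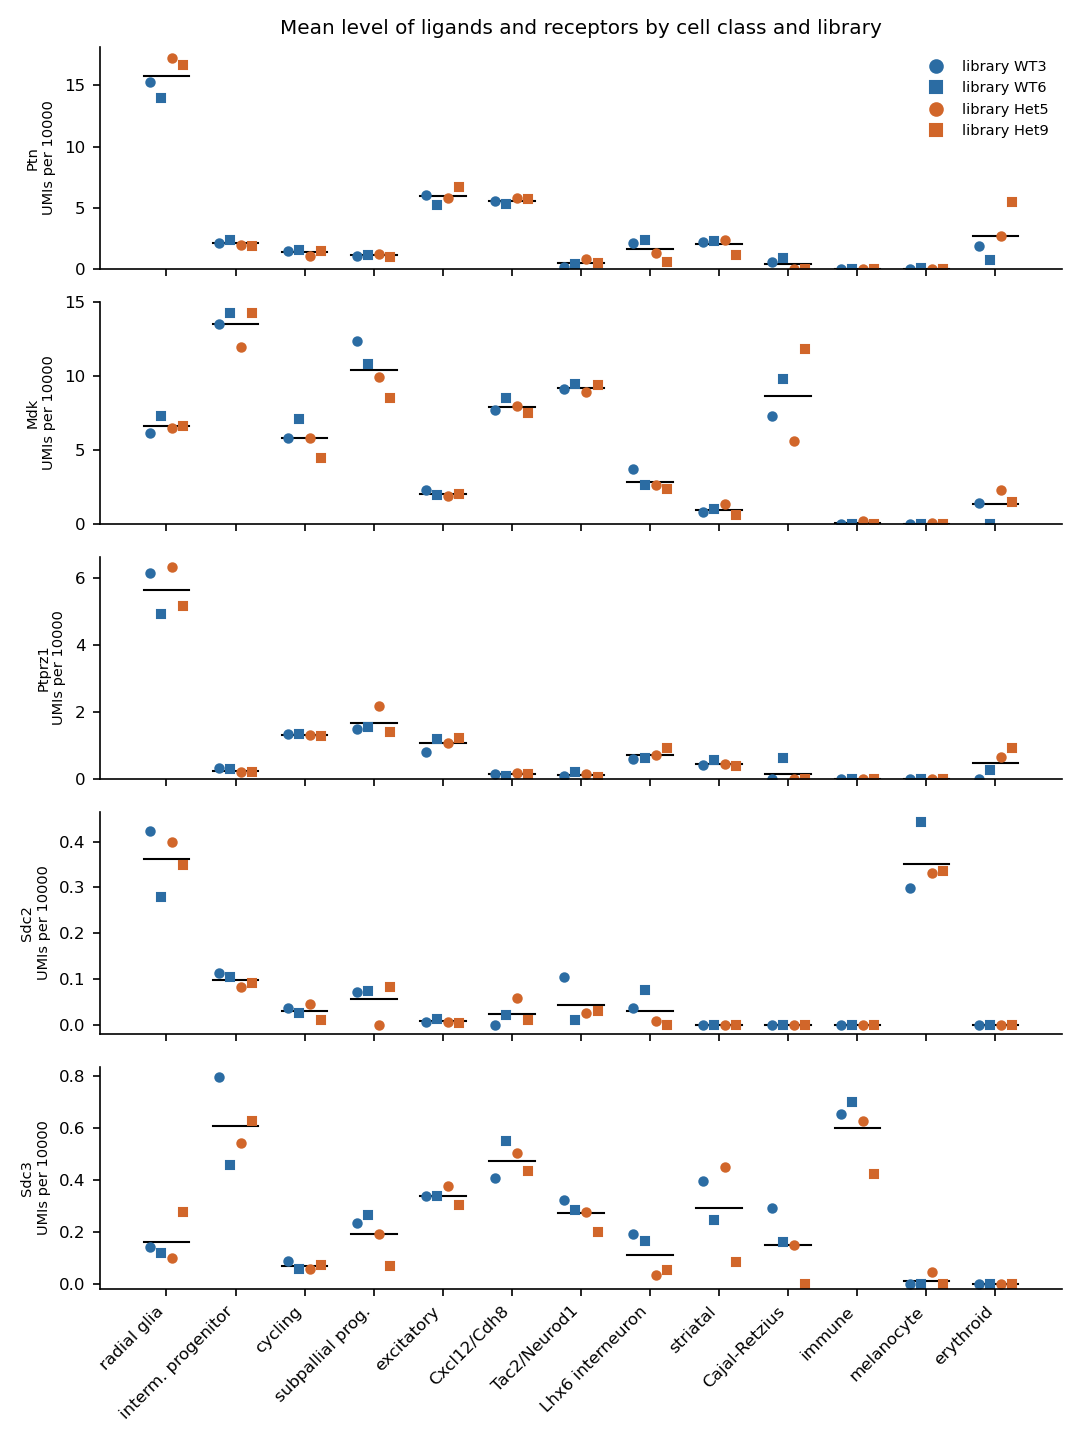
Mean level of Ptn, Mdk, Ptprz1, Sdc2 and Sdc3 (UMIs per 10000 UMIs of a cell, linear axes) in 13 cell classes, with 1 point per library (blue WT, orange Het) and a black line at the mean of the 4 libraries. Ptn and Ptprz1 peak in the radial glia-like class, at 15.8 and 5.63, while Mdk peaks in the intermediate progenitor-like class at 13.5.

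Mdk had another distribution. Its highest class was the intermediate progenitor-like cells, named for precursors committed to excitatory neurons, with 13.5, 14.3, 11.98 and 14.3 UMIs per 10000 (WT3, WT6, Het5, Het9). The subpallial progenitor-like cells, named for precursors of inhibitory neurons, were at 12.4, 10.8, 9.97 and 8.51, so the libraries of these classes overlapped. The top 10 genes of the subpallial progenitor-like cluster hold its marker Gsx1 beside the replication genes Ung, Uhrf1, Mcm3, Hells and Mcm2. The 8 subpallial markers summed to 25.9 there, to 26.4 in the cycling cells and to 26.7 in the Lhx6-type class. These clusters are therefore not told apart by that list. The Tac2/Neurod1 cells (9.23 ± 0.24), the Cajal-Retzius or hem-like cells (8.64 ± 2.7, 35 cells) and the Cxcl12/Cdh8 neurons (7.94 ± 0.46) came next and also overlapped in order.

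Radial glia-like cells (6.66 ± 0.49) and cycling cells (5.81 ± 1.1) held less Mdk than these. Mdk was lower still at 2.85 ± 0.60 in the Lhx6-type class, 2.05 ± 0.19 in the excitatory neuron-like class and 0.960 ± 0.30 in the striatal neuron-like class. In the melanocyte-like and immune cell-like classes 1 Mdk UMI each was counted. Intermediate progenitor-like cells alone gave 29.2% to 36.1% of a library's Mdk UMIs from 13.3% to 15.2% of its cells.

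The orders of classes for the ligands differed. The radial glia-like class led for Ptn and came after 5 other classes for Mdk, and the excitatory neuron-like class was next to the highest for Ptn and below 8 other classes for Mdk. Over the 11 classes with at least 20 cells in every library, the Pearson r of their log2 levels was 0.69. Without the classes of shared barcodes, where both are near 0, it was -0.15 over 9 classes. These are descriptions over classes that share libraries and depth.

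Ptprz1, the receptor phosphatase, followed Ptn into the radial glia-like cells, where it stood at 6.13, 4.91, 6.30 and 5.17 UMIs per 10000 (WT3, WT6, Het5, Het9; 5.63 ± 0.69). Subpallial progenitor-like cells were next with 1.66 ± 0.36, then cycling cells with 1.32 ± 0.029 and excitatory neuron-like cells with 1.07 ± 0.19, and the first 3 of these 4 classes did not overlap the class after them. The Cxcl12/Cdh8 neurons, rich in Ptn, were among the lowest at 0.141 ± 0.035, and so were the intermediate progenitors, rich in Mdk, at 0.255 ± 0.064. No Ptprz1 UMI was found in 147 melanocyte-like cells, which would allow a share of up to 2.04% if the cells were independent. Of these cells 140 carried a barcode that occurs in all 4 libraries, so the limit is too tight.

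Radial glia-like cells gave 41.1% to 60.6% of the Ptprz1 UMIs of a library. Class shares say nothing about single cells, so cells that held both ligand and receptor were counted separately. At 2000 UMIs per cell, 44.7% of radial glia-like cells held a UMI of both Ptn and Ptprz1, the mean of 4 libraries, and Ptn was found in 85.2% of cells with Ptprz1 and 82.2% of cells without it, an order that held in 3 of 4 libraries and not in WT3 (78.2% against 85.4%). In the subpallial progenitor-like class Ptn was found in 25.4% of cells with Ptprz1 and in 10.2% of cells without it, and the first share was higher in 4 of 4 libraries, as it was in the intermediate progenitor-like (40.7% against 26.5%) and excitatory neuron-like classes (58.8% against 51.0%). In the cycling class it was higher in 1 of 4 libraries, with 18.3% against 20.2%. Mdk in radial glia-like cells was found in 65.4% of cells with Ptprz1 and in 72.9% of cells without it, lower in 4 of 4 libraries. The excitatory neuron-like class showed the same order for Mdk, 22.8% against 32.4%, again in 4 of 4 libraries. In the intermediate progenitor-like class, where Mdk was highest, the order was the reverse, 94.9% of cells with Ptprz1 against 88.8% without it, in 4 of 4 libraries and from 51 cells with Ptprz1.

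**Figure D2:**
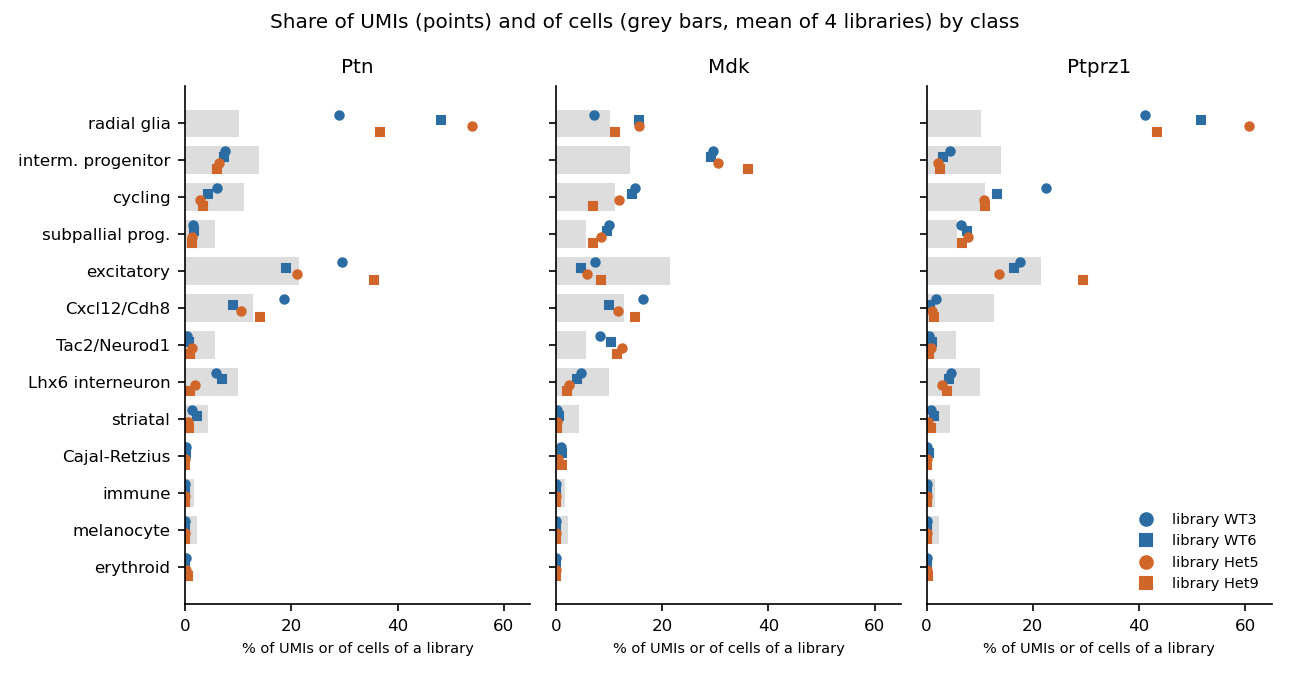
Share of each library's UMIs of Ptn, Mdk and Ptprz1 (percent, points, blue WT and orange Het) and share of its cells (grey bars, mean of 4 libraries) by class. Radial glia-like cells give 28.9% to 53.9% of Ptn and 41.1% to 60.6% of Ptprz1 UMIs, and intermediate progenitor-like cells give 29.2% to 36.1% of Mdk UMIs, each well beyond their share of cells.

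The syndecans, membrane proteoglycans that carry heparan sulfate, were sparse. Sdc2 was counted 322 times in all and Sdc3 1096 times. Sdc2 was highest in radial glia-like cells (0.424, 0.280, 0.399 and 0.349 UMIs per 10000 in WT3, WT6, Het5 and Het9), level with the melanocyte-like cells (0.299, 0.443, 0.331 and 0.335), and these classes overlapped. Intermediate progenitors held 0.0981 ± 0.014, and the excitatory neuron-like class, the largest, held 8 UMIs in 1385 cells. Sdc3 was spread over neurons and their precursors.

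Sdc3 was highest in the intermediate progenitor-like class (0.796, 0.459, 0.544 and 0.628 in WT3, WT6, Het5 and Het9), with the immune cell-like class (0.601 ± 0.12, from 14 UMIs) and the Cxcl12/Cdh8 neurons (0.474 ± 0.065) overlapping it. Radial glia-like cells, high in Sdc2, held 0.159 ± 0.079 of Sdc3. The Pearson r of Sdc3 with Ptprz1 was -0.22 over 11 classes and -0.61 over the 9 without shared barcodes, and that of Sdc2 with Ptprz1 was 0.16 and 0.59.

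Alk was at the edge of detection. Its UMIs numbered 2, 3, 2 and 2 in WT3, WT6, Het5 and Het9, in 0.137% of all cells, so no class or genotype could be compared at this depth. None lay in the 689 radial glia-like cells, which allows a share of up to 0.435%. The other ligands of ALK, Alkal1 and Alkal2, were not analysed here.

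Within the named classes, cells were next split by whether they held a UMI of a marker fixed for that class, in 58 splits of each gene. Ptn was higher in all 4 libraries in cells with the marker in 8 splits and lower in 13, Ptprz1 in 14 and 17, Mdk in 3 and 21, Sdc3 in 5 and 11 and Sdc2 in 5 and 5. The splits named here were chosen after their values were seen. In the excitatory neuron-like class Ptn was at 2.54 UMIs per 10000 in cells with Fezf2, a determinant of subcerebral projection neurons, and at 7.32 in cells without it, lower in 4 of 4 libraries. Ptprz1 did not follow Fezf2 in all libraries.

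In radial glia-like cells Ptn was at 17.7 in cells with Aldoc, a glycolytic enzyme of astrocytes and their precursors, and at 9.47 in cells without it. Ptprz1 stood at 6.84 there in cells with Hes5, a Notch target, and at 4.16 in cells without it. Both orders held in 4 of 4 libraries.

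Among subpallial progenitor-like cells, those with Sp9, a transcription factor of young inhibitory neurons, held 0.514 of Ptn and 0.942 of Ptprz1. Cells without Sp9 held 1.90 of Ptn and 2.51 of Ptprz1. Both differences had the same direction in 4 of 4 libraries.

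The genes whose pattern over the 11 classes was most like that of each member were found among 8413 genes by Pearson r of log2 levels. For Ptn these were Fam171b (0.97), Sfrp1 (0.95), a secreted Wnt antagonist, and Ahcyl1 (0.94). Mdk was closest to Mfap2 (0.99), a microfibril protein, Igf2bp1 (0.98), an RNA-binding protein, and Urod (0.97), a heme synthesis enzyme. Ptprz1 was closest to Prmt5 (0.96), an arginine methyltransferase, Prkar2a (0.94) and the receptor gene Fgfr2 (0.93).

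Sdc2 was closest to Tanc1 (0.97), Sparc (0.96), a matrix protein, and Wwtr1 (0.95), and Sdc3 to Sec16a (0.94), Psmd4 (0.91) and Spint2 (0.89). Computed in single libraries, r ranged from 0.93 to 0.97 for Ptn with Fam171b and from 0.89 to 0.94 for Sdc2 with Tanc1, but from 0.21 to 0.78 for Ptprz1 with Prkar2a and from 0.021 to 0.89 for Sdc3 with Sec16a. Of the 15 genes, 4 stayed among the first 3 by Spearman rho and 2 without the classes of shared barcodes.

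The comparison that led to these genes is that of Ptn in the Lhx6-type interneuron-like class, 670 cells whose cluster is led by Npy, Htr3a and Lhx6 and has 6 of the markers fixed for it among its top 10 genes. Lhx6 marks inhibitory neurons born in the medial ganglionic eminence. Ptn was at 2.16, 2.38, 1.33 and 0.580 UMIs per 10000 (WT3, WT6, Het5, Het9). Both Het libraries lay below both WT libraries, as was so for 18.6% of genes tested in this class, and the mean log2 difference was -1.26 (Het minus WT). In this class limma called 0.249% of all genes, which is given as background only. Het9 lay furthest from the others, and without it the log2 difference was -0.73. The counts behind these values were 187, 347, 96 and 33 UMIs in 153, 259, 141 and 117 cells.

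Ptn in this class lay in a subset of its cells. Among 7046 genes found in at least 5% of the class, the one that followed Ptn most closely from cell to cell was Zic1 (r = 0.51 over 670 cells, centred within libraries), a zinc finger transcription factor of the septum and other midline parts of the forebrain. Zic4 (0.47) and Fgf15 (0.46) came next. Zic1 was chosen here after these values were seen, and it is one of 16 genes the study singled out in its own cluster, so it was left out of the clustering genes. The study reported Zic1, Zic4 and Fgf15 as lower in Het in that cluster.

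Cells of the class with a Zic1 UMI held 5.52, 6.36, 4.67 and 1.03 UMIs of Ptn per 10000 in WT3, WT6, Het5 and Het9. Cells without one held 0.714, 0.574, 0.612 and 0.564. In the cells without Zic1 the genotypes overlapped and the log2 difference was -0.11. The cells with Zic1 numbered 46, 81, 25 and only 4, which is 30.1%, 31.3%, 17.7% and 3.42% of the class in each library. They gave 84.5%, 88.2%, 70.8% and 6.06% of the class's Ptn UMIs.

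The cells without Zic1 numbered 107, 178, 116 and 113. The share of cells with Zic1 was itself lower in both Het libraries, and Zic1 was found through Ptn in these same cells, so the split is a description and the near-equal Ptn values without Zic1 support nothing about genotype. The part of the Zic1 share in the Ptn difference was not tested, and genotype and sex cannot be told apart here either. Among cells with Zic1, Het5 was below both WT libraries and Het9 rested on 2 UMIs. Cells with Zic1 had a median of 4834.5 to 5772 UMIs against 3522 to 3792 for the others. After thinning to 2000 UMIs, Ptn was found in 9.52%, 11.5%, 10.4% and 8.25% of the cells without Zic1.

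**Figure D3:**
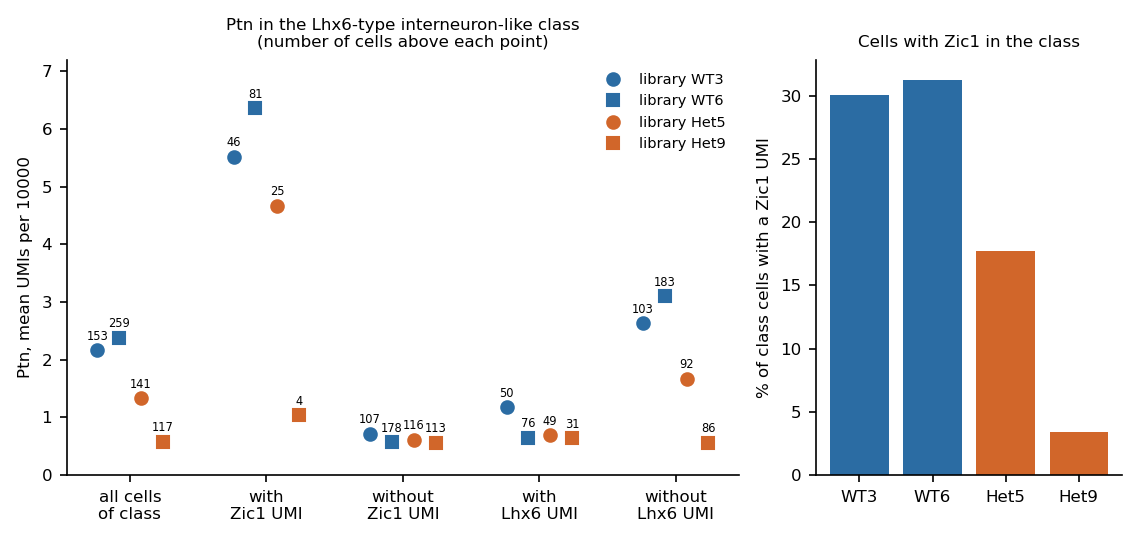
Left, Ptn level (mean UMIs per 10000) by library in the Lhx6-type interneuron-like class, in all its cells and in cells split by a UMI of Zic1 or of Lhx6, with the number of cells above each point (blue WT, orange Het). Right, percent of the class with a Zic1 UMI by library, from 3.42% in Het9 to 31.3% in WT6; in cells without Zic1 the 4 libraries lie between 0.564 and 0.714.

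The class was also split by Lhx6 itself, the transcription factor that specifies these interneurons. In the 50, 76, 49 and 31 cells with a Lhx6 UMI, Ptn was at 1.18, 0.648, 0.695 and 0.643, and the genotypes overlapped. Cells without one held 2.64, 3.10, 1.67 and 0.557, so the genotypes stayed apart there, unlike in the cells without Zic1. The 242 cells of any class with a UMI of Lhx6 and of Gad1 or Gad2, the enzymes that make GABA, held 2.03, 1.17, 1.14 and 1.01. Both Het libraries lay below both WT libraries among them, with a log2 difference of -0.49. In splits by Isl1 and by Lhx8, cells without the gene also kept the genotypes apart. Ptn was at 1.66, 1.43, 0.957 and 0.6001 in cells of the class without Isl1, a factor of striatal and cholinergic neurons, and at 2.43, 2.43, 1.47 and 0.595 in cells without Lhx8.

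The make-up of the class also varied in other genes. Lhx8, a factor of cholinergic and ventral forebrain neurons, was at 0.958, 1.79, 1.99 and 0.0979, lowest in Het9, and was picked after its values were seen. Nr2f2, of caudal ganglionic eminence cells, was at 1.06, 1.41, 1.96 and 2.67. The 8 markers of Lhx6-type interneurons, none of them at 0, summed to 15.3, 14.7, 15.2 and 14.4, and the 6 markers of Htr3a or Nr2f2 interneurons to 3.40, 4.27, 4.40 and 6.51. The 8 excitatory neuron markers summed to 5.94, 6.70, 6.99 and 7.06 and the 8 radial glia markers, with Hes1 at 0, to 5.11, 4.21, 5.60 and 6.12. The excitatory neuron, radial glia and Htr3a or Nr2f2 sums were higher in both Het libraries. The 8 subpallial markers summed to 27.3, 25.5, 26.9 and 28.1. Het9 was lowest for the 7 Cajal-Retzius or hem markers (1.10, 0.432, 0.819 and 0.0838). It was highest for the 6 erythroid markers (7.61, 9.94, 5.43 and 14.7) and the 8 striatal neuron markers (8.41, 7.71, 8.08 and 10.3). The part of these differences in the Ptn result was not tested.

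The other members in this class are given as values only. Mdk was at 3.73, 2.65, 2.63 and 2.40 and Ptprz1 at 0.612, 0.621, 0.711 and 0.930 in WT3, WT6, Het5 and Het9. Sdc3 was at 0.191, 0.165, 0.0354 and 0.0525, from 15, 18, 3 and 3 UMIs. In cells without Zic1 it was at 0.148, 0.185, 0.0130 and 0.0543, so the genotypes stayed apart there on few counts.

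Outside the Lhx6-type class, limma with Benjamini-Hochberg adjustment over all genes called none of the 34 tests of members in 10 classes. Over all genes 0.0888% of tests were called. At an unadjusted p under 0.05 stood 5 of the 34, against 4.81% of all tests. The genotypes did not overlap with Het higher in 3 of the 34, against 16.5% of all tests, and with Het lower in 9, against 17.2%. These tests share their libraries. By class, the share of genes called was 0% in the melanocyte-like and immune cell-like classes, 0.0397% in striatal neuron-like, 0.0903% in excitatory neuron-like and 0.118% in Cxcl12/Cdh8 neurons. The fit on summed UMIs also called 0. A test of 2 against 2 libraries by exact permutation cannot go below p = 0.33.

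The smallest p-value of Ptn outside that class was in the Tac2/Neurod1 cells, where the libraries WT3, WT6, Het5 and Het9 held 0.190, 0.406, 0.797 and 0.544 UMIs per 10000. The log2 difference was 0.99 ± 0.27 (SE), with Het higher, and limma gave an adjusted p of 0.489 in a class where 0.0788% of genes were called. Without WT6 it was called (log2 1.39, limma adjusted p = 0.0147), in a fit that called 0.317% of genes. Without WT3 the difference was 0.59 and at the higher clustering resolution 0.35, neither of them called. Of the summed marker levels in this class, those of the 8 excitatory neuron markers were 20.7 and 19.9 in WT3 and WT6 against 22.8 and 21.3 in Het5 and Het9, and those of the 6 intermediate progenitor markers 6.17 and 7.57 against 9.07 and 7.84, higher in both Het libraries as Ptn was. Those of the 7 Cajal-Retzius or hem markers were 3.31 and 3.08 against 1.67 and 2.34, and those of the 8 subpallial markers 0.919 and 0.706 against 0.364 and 0.451. Their part in the Ptn difference was not tested. It rested on 9, 34, 71 and 34 UMIs.

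In the radial glia-like cells, its highest class, Ptn was higher in both Het libraries, by 0.22 ± 0.062 on the log2 scale (limma, adjusted p = 0.610; 0.181% of genes called). The half-width of its 95% confidence interval was 0.13, and with each library left out in turn the difference was 0.15 to 0.28. Other marker lists moved in this class too. The choroid plexus or ependyma list (3 of its markers in the table, with Ttr the leading gene of the cluster) summed to 0.0737, 0.409, 0.362 and 22.0 UMIs per 10000 in WT3, WT6, Het5 and Het9, so Het9 stood apart. The 6 erythroid markers summed to 7.74, 5.78, 25.1 and 19.5, the 6 glial progenitor markers to 2.66, 2.23, 1.5005 and 1.20, and the 8 radial glia markers to 99.8, 93.5, 108.4 and 109.97. The 6 intermediate progenitor markers summed to 7.09, 6.27, 9.16 and 12.5 and the 8 excitatory neuron markers to 1.87, 2.19, 2.36 and 2.27. The erythroid, radial glia, intermediate progenitor and excitatory neuron sums were higher, and the glial progenitor sum lower, in both Het libraries. Their part in the Ptn difference was not tested. Ptn over all cells had a log2 difference of 0.19 ± 0.060 (limma, adjusted p = 0.994), where 0.086% of genes were called, and no member was.

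Mdk was lower in Het in the cycling cells (5.85, 7.10, 5.82 and 4.49, log2 -0.33 ± 0.12) and the subpallial progenitor-like cells (log2 -0.33 ± 0.11). Neither passed (limma, adjusted p = 0.966 and 0.666), where 0.108% and 0.162% of genes were called. Without Het5 the cycling cells passed (log2 -0.51, limma adjusted p = 0.00347), in a fit that called 1.45% of genes, and without Het9 the difference was -0.14 and was not called. In the intermediate progenitor-like cells, its main source, Mdk differed by -0.084 ± 0.082 (limma, adjusted p = 0.995), and 0.0916% of genes were called.

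Ptprz1 in the radial glia-like cells differed by 0.055 ± 0.11 (limma, adjusted p = 0.980) and in the intermediate progenitor-like cells by -0.44 ± 0.18 (adjusted p = 0.995), on 39, 50, 36 and 25 UMIs. Sdc2 could be tested only in the radial glia-like and melanocyte-like cells, at 0.087 ± 0.21 and -0.10 ± 0.41. Sdc3 ranged from -0.66 to 0.24 over 8 classes, with no adjusted p under 0.851. Leaving out the 2 classes of shared barcodes took away 1 test of Sdc2 and 1 of Sdc3, and 0 of the remaining 32 were called, where 0.109% of all tests were.

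**Figure D4:**
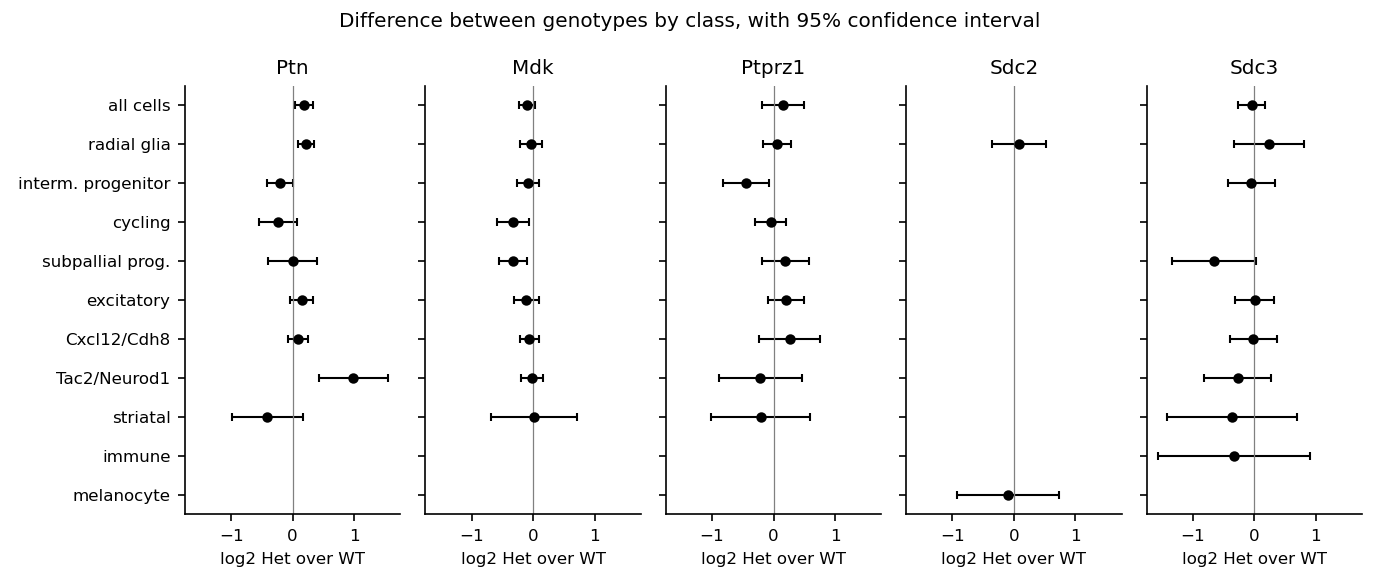
Log2 difference of Het over WT (points) with its 95% confidence interval (bars) from limma for 5 genes over all cells and in 10 classes; a class without a point was under the filter on low values. Most intervals include 0, and the point furthest from it is Ptn in the Tac2/Neurod1 cells at 0.99, with an adjusted p of 0.489.

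Whether the genotype difference of a member itself differed between 2 classes was tested over 45 pairs of classes. limma called 0 of 113 tests of members, of which 7 (6.19%) had an unadjusted p under 0.05, where 0.00562% of all tests were called and 5.2% had an unadjusted p under 0.05. No member test had an adjusted p below 0.869. Pairs with the Lhx6-type class were left out.

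The wider pathway was read from a list of 81 genes by role, of which 72 besides the members were in the table and 64 passed the filter on low values in at least 1 class. limma called 0 of their 437 tests over all cells and 10 classes, in either direction, where 0.0885% of all tests were called. At an unadjusted p under 0.05 stood 18 (4.12%), against 4.76% of all tests. Their median log2 difference was 0.0058 beside -0.0023 for all genes. In the Lhx6-type class 0 of 38 were called, from which nothing is read.

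By role, the highest of the other reported receptors over all cells were Ncl (nucleolin, 5.07 UMIs per 10000) and Ptprs (3.72), a phosphatase that also binds sulfated chains. Of chondroitin sulfate proteoglycans, Ncan (neurocan) stood at 1.82 and Vcan (versican) at 0.469. Of further PTPRZ1 partners, the adhesion molecules Ncam1 and L1cam stood at 2.75 and 0.475, and of PTPRZ1 substrates Ctnnb1 (beta-catenin) and the kinase Fyn at 2.95 and 1.15. None of these levels is per transcript length.

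Of ALK adaptors, Grb2 was at 1.01 and Ptpn11 at 0.595. Among enzymes that build and sulfate heparan sulfate, Hs2st1 was at 0.555 and Hs6st2 at 0.368, and among those for chondroitin sulfate, Chsy1 at 0.205 and Chpf at 0.173. Of syndecan partners, the membrane linker Ezr was at 1.92 and Sdcbp (syntenin) at 1.23. Among these 16 genes, Hs2st1 alone had its highest class in the radial glia-like cells.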

How the data were processed

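The authors aligned reads to mm10 with Cell Ranger 2.1 and worked in Seurat 2.3.0, per the labels and the submitters' processing notes. They deposited 1 table of natural log values, ln(1 + UMIs per 10000 UMIs of the cell), for 16600 genes and 6562 cells. Whole UMIs were recovered for 100% of 14848520 values above 0 (tolerance 0.001), with 1258 to 14996 UMIs per cell.

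Cells were clustered again with scanpy 1.11.5 and leidenalg 0.10.2 on 2000 variable genes (20 components, 20 neighbours, resolution 0.3, 13 clusters), leaving out Setd5, 16 genes named by the study, the members and the pathway list. Clusters were named from marker lists. Scrublet doublets (64 cells) were kept and left out as an alternative. Means per library and class, as log2(UMIs per 10000 + 0.1), were compared between genotypes with limma 3.58.1 (R 4.3.3), with a trend, a mean of at least 0.1 and at least 20 cells in every library, after a check on simulated data; Benjamini-Hochberg adjustment ran over all genes. A log2 difference on this scale understates the change of low genes. Values after ± are SD over 4 libraries, or SE for log2 differences.

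The members, gene lists and tests were chosen with earlier results of these data known. All members, and not Ptn alone, were left untested in the Lhx6-type class, which is stricter than the design written at the start. Named were the 6 members in every class, Setd5 and the checks of sex, the 3 genes most like each member, the 2 highest pathway genes of each role, any called, and the 3 leading genes of a class. Alternatives were other pseudocounts, no filter, summed UMIs, libraries, doublets or shared barcodes left out, thinning and other clusterings. Not all splits of cells by a marker gene are reported here.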

Additional observations from a re-analysis of the deposited data

How the results depend on the processing

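No paired analysis was possible because the cell names carry a genotype and a number that is not the replicate number of the labels, so the replicate block was not run. With 2 libraries per genotype and sex moving with genotype, leaving out 1 library assumes that the lone one varies like the others.

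The count of members called outside the Lhx6-type class was 0 under 13 of 15 alternatives. It ranged from 0 to 1 with a library left out: Ptn in the Tac2/Neurod1 cells without WT6 (log2 1.39; adjusted p = 0.0147 to 0.99955 over its alternatives) and Mdk in the cycling cells without Het5 (log2 -0.51; 0.00347 to 0.99995). Over all cells it was 0 under all 11 alternatives, and between classes 0 under all 8. For the pathway list the count ranged from 0 to 2 with a library left out, from Ptpn11 in the subpallial progenitor-like cells (log2 1.38 without WT6, 1.15 without Het5) and Gpc6 in the cycling cells (without Het5). Calls over all genes rose in these fits too: in the subpallial class 23 of 7372 genes without WT6 and 55 of 7418 without Het5, against 12 of 7429 with all libraries, and in the cycling class 108 of 7456 without Het5, against 8 of 7437.

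The log2 difference of Ptn in the Lhx6-type class was -1.26 and ranged from -1.80 to -0.73 with a library left out. It was -0.49 in cells with Lhx6 and Gad1 or Gad2, -0.35 in cells of the class with Lhx6 and -0.11 in those without Zic1; the latter splits were added after seeing the data. The other planned settings moved it by less than the spread within genotypes (0.54).

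The highest class was the same for 5 of 5 members in 8 of 11 alternatives and for 3 without WT3, where Sdc2 led in melanocyte-like and Sdc3 in immune cell-like cells. It was also the same for 3 at the lower resolution and with the members kept among the clustering genes, where no cluster matched the intermediate progenitor-like class (Jaccard overlap under 0.5). Of the genes most like a member, 4 of 15 stayed among the first 3 by Spearman rho and 2 without the classes of shared barcodes. The levels of Ptn and Ptprz1 in the radial glia-like class fell to 13.6 and 4.76 at the lower resolution, where its cluster held 814 cells in place of 689.

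Of 212 alternatives to single tests and levels, 197 kept their direction and call or moved by less than the spread between libraries. Some small differences that were not called changed sign. With a library left out, Mdk in the intermediate progenitor-like cells ranged from -0.21 to 0.043 (positive without Het5), Ptprz1 in the radial glia-like cells from -0.10 (without WT6; -0.085 without Het5) to 0.21, and Ptprz1 over all cells from -0.054 (without Het5) to 0.36. Sdc2 in the radial glia-like cells ranged from -0.15 (without WT6) to 0.32. Sdc3 ranged from -0.39 to 0.29 (without WT3; 0.042 without Het5) in the intermediate progenitor-like cells and from -0.16 to 0.065 (without WT3) over all cells. Thinned to 3000 UMIs, Sdc2 in the radial glia-like cells went to -0.024, and Sdc3 to 0.11 in the intermediate progenitor-like cells and 0.054 over all cells. The cause was not tested.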

Other observations

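Other genes of the pathway also had their highest level in the radial glia-like class, and those given here were picked after their values were seen. The matrix gene Tnc, tenascin-C, which binds PTPRZ1, was at 0.770 UMIs per 10000 there (0.650 to 0.926 over the 4 libraries) against 0.0928 over all cells. Bcan, brevican, was at 0.815 (0.702 to 1.03) and Cspg5, neuroglycan C, at 1.30 (1.17 to 1.38). Notch2 was at 1.15 (0.778 to 1.29) there against 0.169 over all cells. Of the heparan sulfate sulfotransferases, Hs2st1 was highest in radial glia-like cells, at 1.12 (0.874 to 1.31), and Hs6st2 in excitatory neuron-like cells, at 1.31 (1.02 to 1.51).

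Cells with a Zic1 UMI were not limited to the Lhx6-type class. They were 14.9%, 19.7%, 14.2% and 8.24% of all cells in WT3, WT6, Het5 and Het9, lower in both Het libraries and lowest in Het9. In the Lhx6-type class Ptn was at 5.71 in cells with Zic1 and 0.609 in those without. Ptn was also higher with Zic1 in the cycling cells (2.00 against 1.28) and the Tac2/Neurod1 cells (0.904 against 0.357), in 4 of 4 libraries each. Among the cycling cells, Het9 had only 3 cells with Zic1. In the excitatory neuron-like cells Ptn was higher with Zic1 (7.51 against 5.87) in 3 of 4 libraries. In the radial glia-like cells the pooled values were 15.5 and 15.8, but Ptn was higher with Zic1 in 3 of 4 libraries (15.8 against 15.0 in WT3, 19.0 against 16.7 in Het5, 19.3 against 16.1 in Het9) and lower in WT6 (11.8 against 14.9). In the intermediate progenitor-like cells it was at 1.98 and 2.14, lower with Zic1 in 3 of 4 libraries, in the Cxcl12/Cdh8 neurons at 5.12 and 5.69, higher with Zic1 in both WT libraries and lower in both Het libraries. In the subpallial progenitor-like cells it was at 0.612 and 1.22, lower with Zic1 in both WT libraries (0.251 against 1.32 and 0.226 against 1.37) and higher in both Het libraries (2.44 against 1.18 and 1.76 against 0.980, from 7 and 2 cells with Zic1). Levels given without a library are over cells of all libraries, with no test.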
